A study of Homo sapiens with 16 samples.

Results

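The regions described here are stretches of chromatin that were open in senescent fibroblasts, were not listed as open in proliferating ones, and were not listed as open in senescent cells after either of 2 transcription factor knockdowns. Peaks on chromosomes 1 to 22 from 10 paired-end ATAC-seq lists were merged wherever they overlapped by at least 1 bp, which gave 149504 regions. A region was a member when all 4 senescent control lists held a peak in it and no proliferating, no siFOXF1/2 and no JUN-family knockdown list did. The rule kept 3873 regions, which were 2.59% of all regions, 5.18% of the 74746 regions with a peak in all 4 senescent lists and 19.8% of the 19521 regions that were in all 4 senescent lists and neither proliferating list, called opened from here on. Members were chosen by the presence and absence of the paired-end peaks themselves, so their counts and heights at members are given as descriptions with no test.

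ATAC-seq finds open chromatin with a transposase that inserts sequencing adapters into accessible DNA, and the deposited files list its peaks for 16 libraries. All libraries came from IMR-90 ER:Ras, an established human lung fibroblast line that carries an inducible Ras fused to an oestrogen receptor domain. Senescent control cells (Sen) received a control siRNA and 100 nM 4-hydroxytamoxifen (4OHT) for 6 days, which switches Ras on and leads to oncogene-induced senescence. Proliferating controls (Pro) received the control siRNA and no 4OHT, although their cell type label also reads senescent. The paired-end set held 4 Sen, 2 Pro, 2 siFOXF1/2 and 2 JUN-family knockdown libraries, and both knockdown groups received 4OHT as Sen did. The JUN-family libraries are titled for cJUN and JUND, while their treatment label also names JUNB. A single-end set, which the rule did not use, held 2 Sen, 2 sip300/CBP and 2 sip65 libraries, all with 4OHT. All cells, controls included, carried ER:Ras and a transfected siRNA. No label says whether replicates were separate cultures, so p-values measure the spread between these libraries, which may be technical.

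JUN, JUNB and JUND are subunits of AP-1, a dimeric factor that binds enhancers in stress and growth signalling and is a known organiser of open chromatin in Ras-induced senescence. FOXF1 and FOXF2 are forkhead factors of mesenchymal cells, lung fibroblasts among them, and some forkhead proteins can bind sites on nucleosomes. p300 and CBP are coactivators that acetylate histones at active enhancers, and p65 is the NF-kB subunit that drives many inflammatory genes of the senescent secretory programme. None of these proteins was measured in the lists, so the extent of each knockdown was not analysed here.

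Peak numbers ran from 58955 to 105828 per paired-end list and from 17707 to 69760 per single-end list. No read totals come with the lists, but the fold enrichment and p-value of each peak give back its whole summit pileup, the number of overlapping fragments or reads at the highest point. Background coverage was 1.74 to 3.08 in the paired-end and 0.195 to 0.475 in the single-end libraries, so a weak region has fewer reads behind it in the single-end set. Heights below are summit pileups divided by that background. The JUN-family lists were shorter than the Sen lists, and their pileup over background at regions of all 10 lists had medians of 0.497 and 0.604 times the Sen mean, against 0.947 to 1.08 in the Sen libraries and 1.16 and 1.19 in siFOXF1/2. Peak names of Sen replicates 1 and 2 share a style with Pro and siFOXF1/2, and those of Sen replicates 3 and 4 share another with the JUN-family lists. With Sen replicates 1 and 2 alone the rule kept 7117 regions, and with Sen replicates 3 and 4 alone it kept 6671.

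Among the other opened regions, 8380 were absent from both JUN-family lists and present in both siFOXF1/2 lists (JUN-only regions). A further 415 were absent from both siFOXF1/2 lists and present in both JUN-family lists (FOXF-only regions), and 2074 had a peak in all 4 knockdown lists (held regions). The remaining 4779 had a peak in 1 replicate of at least 1 knockdown. So of the opened regions absent from both siFOXF1/2 lists, 3873 were also absent from both JUN-family lists, 351 were in 1 of them and 415 in both. Of all regions in all 4 Sen lists, opened or not, 6048 were absent after FOXF1/2 knockdown, and 4637 of these also after JUN-family knockdown. Most regions absent after FOXF1/2 knockdown were thus absent after both, but the 4637 include the 3873 opened ones. Absence from both JUN-family lists was also common among opened regions as a whole. Of the opened regions with that absence, 3873 were in no siFOXF1/2 list, 2149 were in 1 and 8380 in both. As background, 13.1% of all merged regions were opened, and of the regions in all 4 Sen lists 8.09% were absent after FOXF1/2 knockdown, 31.6% after JUN-family knockdown and 6.2% after both. The member share of 19.8% of opened regions is set by the rule and is read no further.

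Members were modest peaks in Sen. Their median height was 15.8, 18.4, 13.4 and 14.0 times background in Sen replicates 1 to 4, a mean of 15.4 ± 2.24 (SD, n = 4 libraries). Sen replicates 1 and 2 were the higher pair, as they were at held regions, which had medians of 25.8, 29.2, 25.2 and 24.9. Peak widths at members had medians of 339, 352, 266 and 231 bp in the same order, so Sen replicates 3 and 4 were narrower than replicates 1 and 2.

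**Figure D1:**
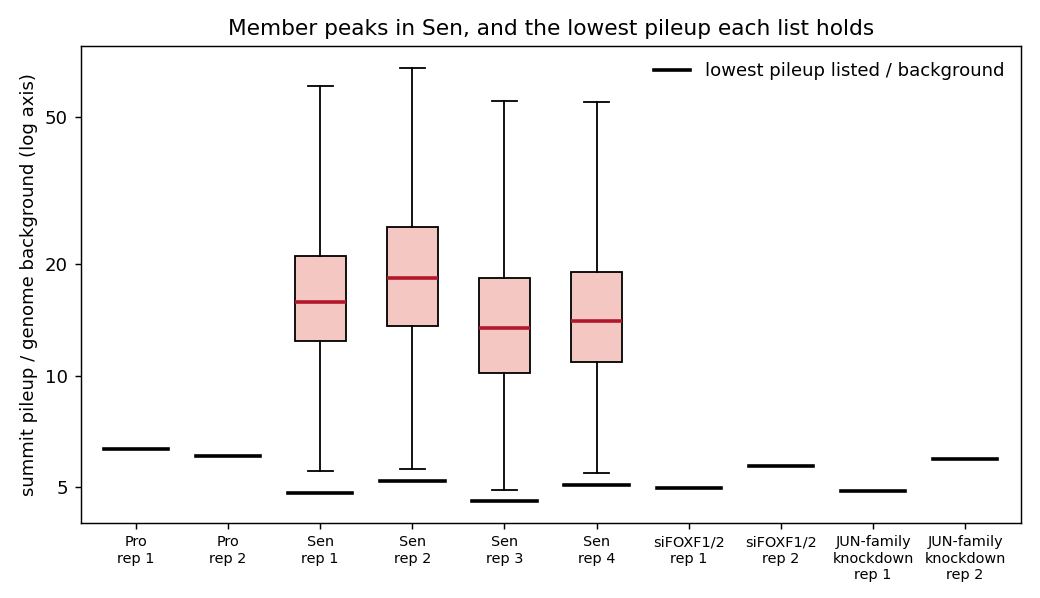
Height of member peaks in the 4 Sen libraries, as summit pileup over genome background on a log axis; boxes show quartiles and median over the 3873 members, whiskers the lowest and highest, and black bars the lowest pileup any peak of each list needs, over the same background. Median heights in Sen run from 13.4 to 18.4, and the bars of the lists without members run from 4.87 to 6.31.

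Members were narrower and weaker than the other opened classes. The rule favours both, because weak or short peaks drop out of a list more easily. The merged region had a median width of 423 bp (quartiles 330 to 547), against 563 bp for JUN-only, 442 bp for FOXF-only and 587 bp for held regions. A merged region joins the peaks of every list that holds it, and fewer lists hold members. The Sen peaks alone, averaged over the 4 Sen lists, had median widths of 306.5 bp at members and 357.75 bp at JUN-only regions. They were 324 bp at FOXF-only and 409.25 bp at held regions. The lowest −log10 q over the 4 Sen lists, used below as the strength of a region, had a median of 17.3 at members. It was 22.04 at JUN-only, 22.9 at FOXF-only and 37.4 at held regions. By strength, members made up 31.0% of opened regions under 10, 26.5% from 10 to 20, 17.4% from 20 to 40 and 6.59% at 40 or more, while held regions went from 3.47% to 27.2%. The 4 Sen summits fell within 50 bp of each other at 50.9% of members, against 55.1%, 54.9% and 59.5% in the JUN-only, FOXF-only and held classes. Within bins of strength the order was different, and members were the lowest class in none. Under 10, such close summits were found at 23.3% of members, 23.6% of JUN-only, 20.7% of FOXF-only and 12.7% of held regions. In the same order of classes the shares were 46.6%, 45.9%, 43.1% and 38.5% from 10 to 20. They were 63.7%, 62.5%, 64.8% and 60.2% from 20 to 40, and 78.5%, 74.3%, 68.8% and 69.0% at 40 or more.

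The strongest members show what the rule finds at its upper end. The member with the highest strength lay at chr2:61598157-61598874 (hg19, 718 bp wide), with heights of 42.7, 45.6, 37.6 and 38.2 in Sen replicates 1 to 4 and a mean of 41.0 ± 3.81 (SD, n = 4). Its 4 Sen summits lay within 20 bp. The member at chr1:97350275-97350852 reached 45.8, 52.4, 36.0 and 38.6. All 4 libraries were thus far above the 4.87 to 6.31 at which the Pro and knockdown lists begin. The member at chr11:63799444-63799995 was the most even of the strong ones relative to its height, at 43.1, 45.2, 43.5 and 42.5.

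The member at chr2:102689114-102689598 had heights of 39.3, 48.8, 42.2 and 42.9, with summits within 1 bp. A short member of 246 bp at chr1:164773642-164773887 had 36.2, 36.0, 34.3 and 37.0. These replicates overlapped closely, with SDs of 4.00 and 1.12. More uneven were chr1:231384450-231384801, at 38.6, 49.6, 32.7 and 31.6, and chr16:2384069-2384395, at 30.0, 46.4, 33.0 and 35.1, where Sen replicate 2 was the highest. Over the 12 strongest members, mean heights ran from 32.9 to 43.6 and widths from 246 to 718 bp. They also included regions at chr14:68573353-68573942, chr3:105812356-105813014, chr18:55851869-55852435, chr5:56346604-56347260 and chr1:20193348-20193756. Genes near these positions are not named because no annotation of hg19 was used here.

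**Figure D2:**
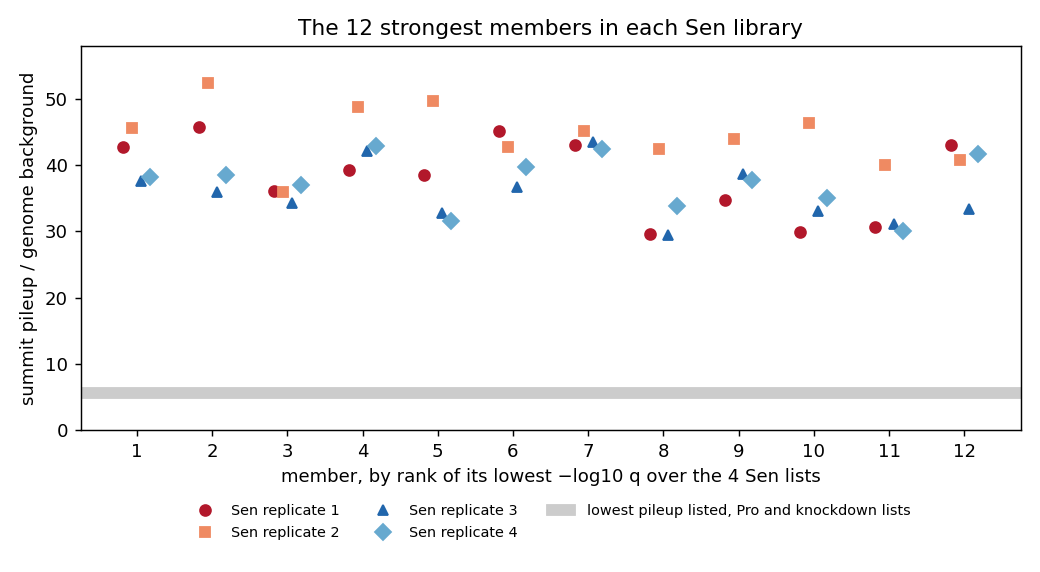
Height (summit pileup over background, y axis from 0) of the 12 strongest members in each of the 4 Sen libraries, by rank on the x axis, with a grey band for the lowest pileup that the Pro, siFOXF1/2 and JUN-family lists hold. Values of the 12 lie between 29.4 and 52.4, far above the band at 4.87 to 6.31, and Sen replicate 2 is often the highest.

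At the lower edge, the weakest member lay at chr22:38700142-38700744 with a strength of 4.36 and heights of 8.95, 10.8, 6.54 and 12.1. The other 3 weakest, at chr18:19833192-19833984, chr10:91620327-91620654 and chr7:12658505-12658933, had strengths of 4.75 to 4.84. All 4 were in no single-end list. Just outside the rule stood regions that lacked 1 Sen list but otherwise met it, and 2904 regions did so. The strongest of them, at chr7:109947891-109948303, had 31.6, 25.5 and 26.9 in Sen replicates 2 to 4 and no peak in replicate 1. The region at chr3:52479033-52479325 had 34.4, 33.4 and 33.5 in Sen replicates 1, 3 and 4 and no peak in replicate 2. Other near misses were 2149 regions with a peak in 1 siFOXF1/2 list, 388 with a peak in 1 Pro list and 351 with a peak in 1 JUN-family list. Strong regions were therefore missing from single Sen lists as well, without a knockdown in that library.

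That comparison sets how far absence from a list can be read. The lowest pileup a list holds, over its background, was 6.31 and 6.07 in Pro, 4.97 and 5.71 in siFOXF1/2, and 4.87 and 5.97 in the JUN-family lists. The lowest Sen height of a member divided by the higher of these floors is its listing margin. Floors and background both come from the low end of each list, so the margin describes a peak in quiet surroundings. Where local background is higher, a peak leaves the list after a smaller fall than its margin. The margin reached 2 at 1814 members against Pro (46.8%), at 2172 against siFOXF1/2 (56.1%) and at 2014 against the JUN-family lists (52.0%). Of all regions in all 4 Sen lists that were absent from those lists, 61.5%, 62% and 65.4% had such a margin, so members lay under the background in each comparison.

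Regions that lacked 1 Sen list, taken against that list, gave margins of similar size, but the 2 measures are not matched. A near miss takes the lowest of its remaining Sen heights over the floor of the list it lacks. Those floors were 4.82, 5.20, 4.58 and 5.07 in Sen replicates 1 to 4. A member takes the lowest of all Sen heights over the higher of its 2 floors, and both differences raise the near-miss margins. A margin of 2 or more was found at 387 of 649 regions lacking Sen replicate 1, 378 of 734 lacking replicate 2, 421 of 700 lacking replicate 3 and 269 of 821 lacking replicate 4, which is 50.1% of the 2904. Their median margin was 2.00, against 1.92, 2.12 and 2.03 for members against Pro, siFOXF1/2 and the JUN-family lists. A margin of 2 at a single region is therefore no sign of a knockdown by itself, since regions missing from a replicate list reached it too. How the shares would compare under a matched measure was not tested. Peaks must also reach a minimum length, which the margin leaves out: the shortest listed peak was 136 to 188 bp in the paired-end lists. The mean Sen peak was under 250 bp at 24.9% of members, 21.7% of FOXF-only, 14.1% of JUN-only and 8.78% of held regions. Among the 2050 members with a mean Sen peak of 300 bp or more, 58.4% had a margin of 2 against siFOXF1/2 and 54.0% against the JUN-family lists, and 41.7% of 914 such near misses had one against the Sen list they lacked.

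**Figure D3:**
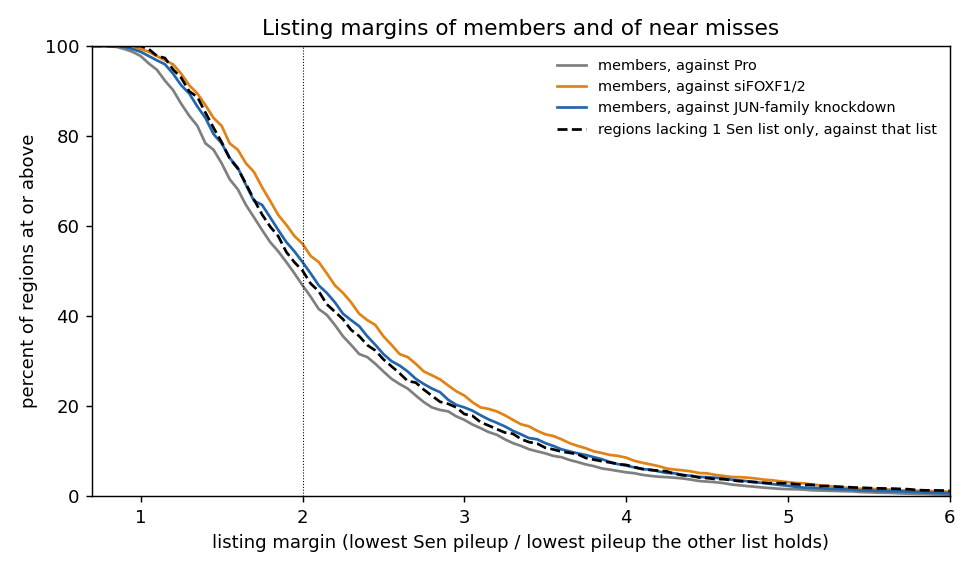
Percent of regions (y axis) whose listing margin, the lowest Sen pileup over the lowest pileup that the other list holds, is at or above the value on the x axis, for the 3873 members against Pro, siFOXF1/2 and the JUN-family lists and for 2904 regions lacking 1 Sen list against that list (dashed). At a margin of 2 the member curves lie between 46.8% and 56.1% and the dashed curve at 50.1%. The dashed curve rests on fewer Sen heights and a single floor, so it is not a matched measure.

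The margin against the JUN-family lists also depended on how libraries were put on one scale. Scaled on regions of all 10 lists in place of background, a choice made after seeing the data, 597 members (15.4%) kept a margin of 2 against the JUN-family lists, and 1107 were under 1. The same scaling gave 2113 members against Pro and 2879 against siFOXF1/2. Under that scale the absence of most members from the JUN-family lists was not detectable as a fall of 2 or more at this depth. A lower signal at all regions in those 2 libraries moves with the absence of members, and its part in the result was not tested.

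The 6 single-end lists are independent of the rule and allow a comparison of members over other libraries and other knockdowns. A peak of the 2 single-end Sen lists was found at 15.7% and 27.3% of members. Shares in the sip300/CBP lists were 7.41% and 4.73%, and in the sip65 lists 16.3% and 4.39%. Both sip300/CBP lists were thus below both Sen lists, while the sip65 lists overlapped them. The mean difference from Sen was −15.5 percentage points for sip300/CBP and −11.2 for sip65, with two-sided exact permutation p = 0.333 and 0.667. Adjusted by Benjamini-Hochberg over the 14 share tests run (7 sets of regions, both knockdowns), these exact permutation p-values were 0.467 and 0.667. With 2 libraries against 2 the smallest p possible is 0.333, so neither test could pass 0.05. The size of the differences depended on the settings: with lists of equal length they were −6.56 and −0.908 points, and with peaks covering at least 50% of a region −3.50 and −2.80. Single-end peaks at members had median widths of 114 to 132 bp per list, and member regions under 50% coverage a median of 434.5 bp. In that setting both single-end Sen lists held only 69 members, against 473 in the main one, so its differences start from low shares.

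Most members had no peak in the single-end set. Of the 3873, 2331 (60.2%) had a peak in no single-end list, 739 in 1 and 10 in all 6. The lowest pileup these lists held, over background, was 21.7 and 14.7 in Sen, 18.9 and 20.4 in sip300/CBP, and 19.1 and 25.7 in sip65. In the paired-end lists it was 4.58 to 6.31. A member without a single-end peak may therefore lie under these floors, and such absence is not read as closed chromatin. As background, the 6 lists held a peak at 54.7% and 65.5% (Sen), 56.7% and 44.3% (sip300/CBP) and 48.8% and 22.3% (sip65) of all regions in all 4 paired-end Sen lists. sip300/CBP replicate 1 was the longest single-end list, with 69760 peaks against 53719 and 66524 in Sen replicates 1 and 2. It held fewer members than either, at a background coverage of 0.264 against 0.231 and 0.475. The part of list length and depth in these shares was not tested. sip65 replicate 2 was the shortest, with 17707 peaks, and its low share moves with that length.

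**Figure D4:**
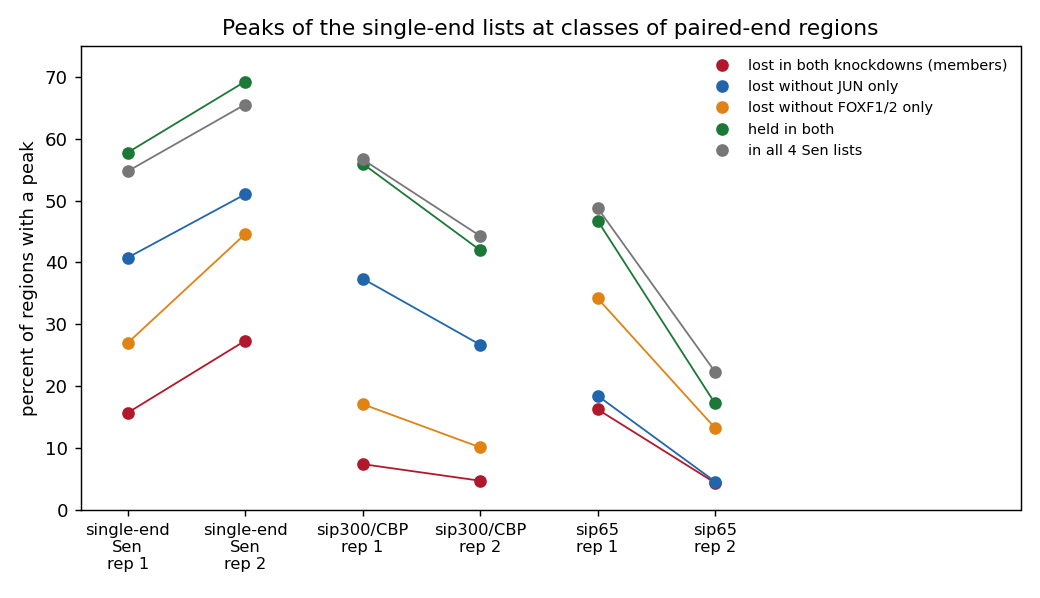
Percent of regions (y axis, from 0) with a peak in each of the 6 single-end libraries (x axis), for members, JUN-only, FOXF-only and held regions and for all regions in all 4 paired-end Sen lists; lines join replicates. Members stand at 15.7% and 27.3% in Sen, 7.41% and 4.73% in sip300/CBP and 16.3% and 4.39% in sip65, and the JUN-only points come down to them in sip65 and not in sip300/CBP.

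Set against JUN-only regions, members were lower in the sip300/CBP lists and close to them in the sip65 lists. JUN-only regions had a peak at 40.8% and 51.0% in Sen, 37.4% and 26.7% in sip300/CBP, and 18.5% and 4.59% in sip65. The member share was 0.385 and 0.536 of the JUN-only share in Sen, 0.198 and 0.177 in sip300/CBP, and 0.881 and 0.955 in sip65. These ratios did not overlap between Sen and either knockdown, lower in both sip300/CBP lists and higher in both sip65 lists. Their log2 differed from Sen by −1.28 and 1.01 (two-sided exact permutation p = 0.333 for each, the smallest 2 against 2 can give). Against FOXF-only regions, which had 27.0% and 44.6% in Sen, 17.1% and 10.1% in sip300/CBP and 34.2% and 13.3% in sip65, the ratio moved less. It was 0.582 and 0.613 in Sen, 0.433 and 0.467 in sip300/CBP, and 0.475 and 0.331 in sip65. Against held regions the ratio was 0.272 and 0.395 in Sen, 0.132 and 0.113 in sip300/CBP, and 0.348 and 0.255 in sip65, where it overlapped Sen. In all, 10 such ratio tests were run, over 5 classes and both knockdowns, and the lowest Benjamini-Hochberg adjusted exact permutation p was 0.476.

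The difference between the classes was also seen among regions of like paired-end strength. At a strength of 20 to 40, the 1329 members had a peak at 23.4% and 38.9% in Sen and at 9.63% and 5.94% in sip300/CBP. The 3443 JUN-only regions of that strength had 45.7% and 59.8% in Sen and 42.5% and 30.1% in sip300/CBP. In the sip65 lists the same members had 23.8% and 6.62%, and the JUN-only regions 19.9% and 4.01%. So at like strength members were less often listed than JUN-only regions in sip300/CBP and slightly more often in sip65. Region width, which also differed between the classes, was not matched here.

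The strongest bin repeats that order. At 40 or more, the 228 members had 46.1% and 69.3% in Sen, 16.2% and 10.5% in sip300/CBP, and 52.2% and 19.3% in sip65. The 1298 JUN-only regions had 75.7% and 85.3%, 58.01% and 47.4%, and 48.0% and 16.4%. The 77 FOXF-only regions had 48.1% and 77.9%, 22.1% and 18.2%, and 58.4% and 27.3%. Members and FOXF-only regions, the classes absent after FOXF1/2 knockdown, were thus both low in the sip300/CBP lists. Counting error covers regions only, and regions are not replicates of a condition.

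To read absence where a peak could be seen, members were restricted to the 473 (12.2%) that both single-end Sen lists held, against 50.5% of all regions in all 4 Sen lists. These 473 were stronger than other members in the paired-end set, with a median strength of 26.7 against 16.3. Of them, 304 (64.3%, 95% Wilson interval 59.9 to 68.5) had a peak in neither sip300/CBP list, where the background over all such regions was 14.7%. The share was 28.9% (27.3 to 30.6) of 2862 JUN-only, 54.9% (44.7 to 64.8) of 91 FOXF-only and 21.9% (19.5 to 24.5) of 1087 held regions. The share absent from both sip300/CBP lists was thus larger at members than at JUN-only and held regions. Regions entered this comparison through the single-end Sen lists alone, so some absence from other lists follows from that choice. The Sen lists also missed members of each other. Of the members in Sen replicate 1, 77.8% were in replicate 2, and of those in replicate 2, 44.7% were in replicate 1. The interval of the FOXF-only class overlapped that of members. All classes were read in the same libraries, so the intervals give counting error over regions and test no effect of the knockdown.

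In the sip65 lists, 277 of the 473 (58.6%, 54.1 to 62.9) had no peak, with a background of 21.9%. JUN-only regions had 61.0% (59.2 to 62.8), FOXF-only regions 41.8% (32.2 to 52.0) and held regions 30.5% (27.8 to 33.3). Here the shares of members and JUN-only regions were close, and both were larger than those of the FOXF-only and held classes. These intervals, too, cover counting error over regions only. By replicate, 68.3% and 76.5% of the 473 were absent from sip300/CBP replicates 1 and 2, and 61.1% and 86.5% from sip65 replicates 1 and 2.

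**Figure D5:**
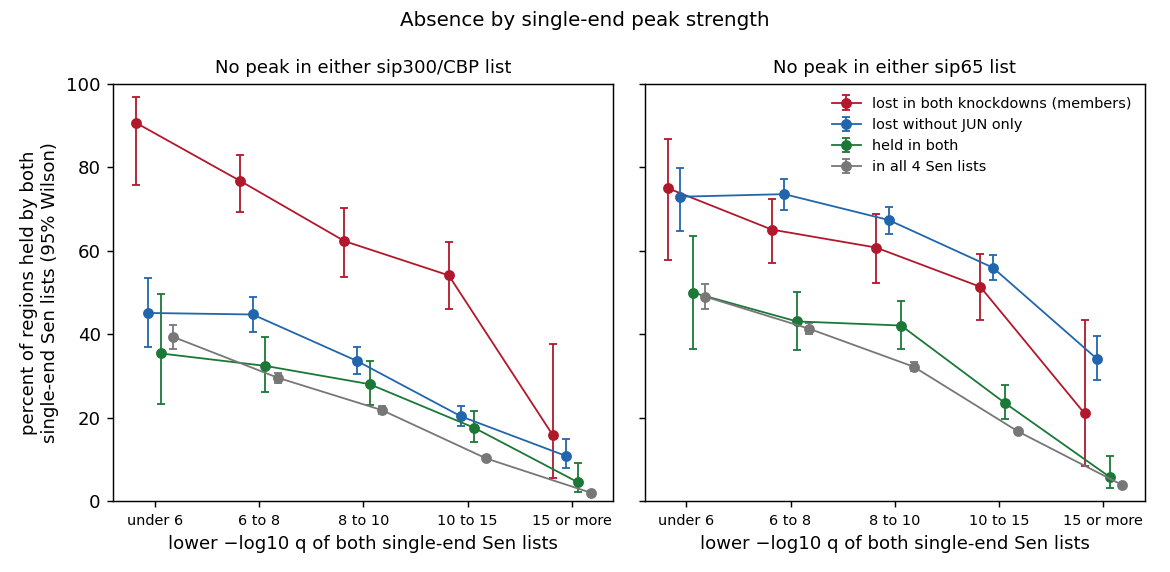
Percent of regions held by both single-end Sen lists that have a peak in neither sip300/CBP list (left) or neither sip65 list (right), by the lower −log10 q of both single-end Sen peaks on the x axis; points are shares and bars 95% Wilson intervals. Members go from 90.6% to 15.8% on the left and lie above the JUN-only points in each bin, with wide bars in the last, while on the right the bars of members and JUN-only regions overlap in each bin, with members at 21.1% and JUN-only regions at 34.1% in the last.

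Weak single-end peaks are easily missed, so the shares were also taken by the lower −log10 q of both single-end Sen peaks. In sip300/CBP, absence at members was 90.6% of 32 under 6, 76.7% of 146 from 6 to 8, 62.3% of 130 from 8 to 10 and 54.1% of 146 from 10 to 15. JUN-only regions had 45.1%, 44.7%, 33.6% and 20.3% in the same bins, and all regions in all 4 Sen lists had 39.4%, 29.6%, 21.8% and 10.3%. Members were higher in each of these bins. At 15 or more, 3 of 19 members were absent (15.8%, 5.52 to 37.6), which overlapped the 10.9% (7.89 to 14.9) of JUN-only regions. In sip65, absence at members was 75.0%, 65.1%, 60.8% and 51.4% in the first 4 bins and 72.9%, 73.6%, 67.4% and 56.0% at JUN-only regions. At 15 or more it was 21.1% of 19 members (8.51 to 43.3) and 34.1% of 302 JUN-only regions (29.0 to 39.6), and the intervals overlapped.

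How often replicates miss a peak sets a reference for these shares. Of the 608 members in single-end Sen replicate 1, 77.8% were found in single-end Sen replicate 2, 26.3% and 20.1% in the sip300/CBP lists, and 36.7% and 11.5% in the sip65 lists. JUN-only regions of that list were found at 83.8% in Sen replicate 2, 60.6% and 48.8% in sip300/CBP, and 32.9% and 8.72% in sip65. Starting from Sen replicate 2, 44.7% of 1059 members were found in Sen replicate 1 and 19.9% and 13.7% in sip300/CBP. The gap between Sen and sip300/CBP was thus there from either starting list, and was narrower from replicate 2.

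The combined pattern over both coactivator and NF-kB knockdowns split the 473 members into all 4 possible groups. Absence from both knockdowns was found at 177 (37.4%), where the background was 5.72%, from sip300/CBP only at 127 (26.8%), from sip65 only at 100 (21.1%) and from neither at 69 (14.6%). Over all regions in all 4 Sen lists that both single-end Sen lists held, these last 3 shares were 9.02%, 16.2% and 69.1%, so the member share of sip65 only was nearest to the background. JUN-only regions had 19.5%, 9.40%, 41.5% and 29.6% in the order both, sip300/CBP only, sip65 only and neither. FOXF-only regions had 18.7%, 36.3%, 23.1% and 21.98%, and held regions 6.90%, 15.0%, 23.6% and 54.6%.

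Named members illustrate these groups, ranked here by the lower −log10 q of both single-end Sen peaks and not by paired-end strength. The first member absent from both knockdowns, at chr21:44151333-44151692, had 21.4, 28.8, 21.6 and 21.0 times background in paired-end Sen and 56.4 and 35.8 in single-end Sen. At chr15:42392656-42393013 the single-end Sen heights were 86.7 and 42.1, and neither sip300/CBP nor sip65 lists held it. Single-end lists had a lower background coverage and higher floors over background, so their heights are compared only within that set. The other 4 of this group were at chr1:213063378-213063737, chr3:71527726-71528015, chr8:97630476-97630837 and chr5:72422201-72422718.

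Among members absent from sip300/CBP but in a sip65 list, chr19:35372929-35373412 had 60.7 and 37.9 in single-end Sen and 51.0 and 46.2 in sip65. The member at chr2:159045918-159046479 had 65.1 and 39.98 in Sen and 38.3 and 56.4 in sip65. In both, the sip65 heights overlapped the Sen heights or lay just under them. The other 4 of the 6 first by that rank were in sip65 replicate 1 only, at heights of 28.7 to 35.1.

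Some members were open in every single-end library. The member at chr7:73698268-73698495, 228 bp wide, had 46.2, 50.0, 48.4 and 54.9 in paired-end Sen and all 4 summits at the same base. In the single-end set it had 82.4 and 61.0 in Sen, 71.9 and 81.7 in sip300/CBP, and 57.4 and 56.4 in sip65, so the sip300/CBP heights overlapped those of Sen. The member at chr6:153491741-153492108 had 78.1 and 46.3 in Sen, 64.3 and 61.3 in sip300/CBP, and 47.8 and 71.8 in sip65. The member at chr7:128748710-128748970 had 8.95 to 12.1 in paired-end Sen and 73.7, 37.9, 60.6, 44.3, 54.2 and 51.3 in the 6 single-end libraries.

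Of the 12 members strongest in the paired-end set, 11 were in both single-end Sen lists and 9 were in neither sip300/CBP list. The lead member at chr2:61598157-61598874 was in both Sen lists, at 47.7 and 21.0, and in no other single-end list. The exception was chr1:97350275-97350852, second by strength, which had no peak in any of the 6 single-end lists. The 3 in both sip300/CBP lists were chr1:164773642-164773887, at 68.1 and 54.5, chr16:2384069-2384395, at 75.7 and 74.9, and chr1:20193348-20193756, at 60.6 and 44.3. All of the last 3 were also in sip65 replicate 1. The list of sip65 replicate 1 held 8 of the 12 and that of replicate 2 held 3.

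Members were spread over all 22 chromosomes. Their share of opened regions ran from 14.9% on chromosome 19 (51 of 342) to 22.05% on chromosome 21 (56 of 254). The nearest opened neighbour of a member was another member at 21.5%, close to the 19.8% that members make up of opened regions. Another member lay within 50 kb of 25.8% of members, and a region of all 10 lists lay at a median of 16.1 kb, against 17.8, 14.0 and 14.7 kb for JUN-only, FOXF-only and held regions. Shares within 50 kb of the same class rise with class size and were not compared.

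The densest places were few. Of the intervals of 200 kb that held a member, 2314 held 1 and 3 held 5. On chromosome 3, the interval from 143400001 to 143600000 held 5 opened regions and all were members, with mean heights of 11.2 to 19.6; single-end Sen lists held 3 of them and sip300/CBP and sip65 lists held 0. On chromosome 2, 5 of the 10 opened regions from 204400001 to 204600000 were members, and 4 of 4 from 68200001 to 68400000. On chromosome 10, 5 of 8 from 12400001 to 12600000 were members, and on chromosome 3, 4 of 7 from 55400001 to 55600000. Members of one interval are neighbours and may not be independent.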

How the data were processed

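Libraries were read as pairs (35 bp) or single reads (75 bp), per the labels' protocols. The submitters' processing notes name MACS2 2.1.1, deepTools 3.1.1, Bowtie2 2.3.4.1, SAMtools 1.9 and the build hg19, with no role or order. Peak calling options, the treatment of duplicates and any read shifting were not given in the sources used here. The authors deposited 1 list of 10 columns per library, so replicates were not pooled. Each deposited peak has a fold enrichment ratio over local background, −log10 p and −log10 q values, a score that was not used, and a summit. Every deposited list starts at a −log10 q just above 4.

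From these, whole summit pileups and local backgrounds were solved for 100% of peaks, within 0.002 in −log10 p, widened in proportion above 10. The 1st percentile of local background served as background coverage, which assumes that it stands for the genome outside peaks. Merging, overlaps, margins and exact tests were computed with Python 3.11.15, numpy 2.4.6 and pandas 2.3.3, and Wilson intervals with scipy 1.17.1. Pileup recovery, merging into members, the share absent from sip300/CBP and an exact test were checked on simulated data. Margins and Wilson intervals were not. Intervals cover counting error over regions only. Single-end peaks were matched to paired-end regions by an overlap of at least 1 bp.

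The members, classes and measures were chosen with earlier results of these data known. The log-ratio comparison of classes and the margins of regions lacking 1 Sen list were added after seeing the data. Named regions are the 12 strongest members, the 4 nearest to the rule on each side, the 6 with the highest lower −log10 q of both single-end Sen peaks in each of 3 single-end patterns, and the 5 densest intervals of 200 kb, with ties (17 intervals held 4 members) taken by position. Alternatives were lists of equal length, a −log10 q minimum of 5, a peak covering at least 50% of a region, 500 bp summit windows, pairs of Sen libraries, leaving out each replicate and another scaling. Planned motif searches, base composition and nearest genes need an hg19 sequence and annotation and were not run, because the reference tables at hand are of GRCh38.p14. Planned subsets by position were left out because even thinning spaces regions by construction.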

Additional observations from a re-analysis of the deposited data

Results flagged for a closer look

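Sen replicate 2 stood apart from the other 3 Sen libraries at the strong member chr5:56346604-56347260, with a height of 40.01 times background against 30.7, 31.1 and 30.0. The gap was 0.893 of the range, above the 95% limit of Dixon's test for 4 libraries. It was the only such case among 17 checks, all on the same 4 Sen libraries. Chance gives about 1 in 20 for each check, so 1 case among 17 is not read further. On chromosome X, which the rule leaves out, 95 regions met the same presence and absence criteria, 21.6% of the 440 opened regions there.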

How the results depend on the processing

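Absence from sip300/CBP or sip65 is given as a share of the members that both single-end Sen lists held. With lists of equal length the rule kept 1486 members, the median height in Sen was 25.2, the median width 514 bp, 44 members had a margin of 2 against both knockdowns, 51.4% of 72 were absent from sip65 and 11.2% of members lay within 50 kb of another member. With 50% coverage, absence from sip65 was 71.0% of 69, height 18.3 and the share within 50 kb 22.2%, and 500 bp windows gave a width of 550 bp. Sen replicates 1 and 2 alone gave 7117 members, 3922 with that margin, 65.4% of 610 absent from sip65 and 39.2% within 50 kb. Sen replicates 3 and 4 alone gave 6671 members, 3458 with that margin, a width of 257 bp, 55.8% of 708 absent from sip300/CBP and 39.0% within 50 kb. Scaling on regions of all 10 lists, chosen after seeing the data, left 597 with that margin. The cause was not tested, except that fewer required lists admit more regions.

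Leaving out 1 replicate gave 3974 to 5312 members, 2084 to 2869 with that margin, heights of 14.3 to 15.9, widths of 364 to 441 bp, and 25.9% to 32.3% within 50 kb. Absence ranged from 54.1% (without siFOXF1/2 replicate 1) to 77.2% (without single-end Sen replicate 1) in sip300/CBP and from 56.4% to 86.5% (without sip65 replicate 1) in sip65. The difference in share from Sen ranged from −21.3 to −9.63 points for sip300/CBP and from −17.1 to −5.25 for sip65. Other settings moved it further, to −6.56 and −0.908 points with lists of equal length and to −3.50 and −2.80 with 50% coverage. Members minus JUN-only regions in absence was 15.5 to 38.3 points in sip300/CBP, above 0 in 22 of 22 settings, and −8.74 to 1.14 points in sip65, above 0 in 1 of 22. Settings without a sip65 list could not change the sip300/CBP difference, nor those without a sip300/CBP list the sip65 difference. The settings share most libraries, so these counts are not independent checks.

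No paired analysis was possible because the results are counts and shares from peak lists with no fitted model, and no label says that a replicate number is shared between groups. Peaks below the listing floors, and heights in libraries without a peak, are beyond what the lists show.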
